A study of Rattus norvegicus with 24 samples.

Results

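The comparison described here is that of peripubertal stress among offspring of LPS-treated dams in the nucleus accumbens (NAc), the ventral part of the striatum. Its libraries were chosen by their labels alone, and they number 6 of the 24 in the series. The stressed group holds 3 libraries from male Sprague-Dawley rats whose dams received lipopolysaccharide (LPS) on gestational days 15 and 16 and who met unpredictable stress in adolescence. The unstressed group holds 3 libraries from males of the same strain and the same prenatal LPS exposure that were only handled. Prenatal LPS is therefore shared by both groups, and the difference between them is stress. All rats were sampled on postnatal day 90, as adults, and RNA came from bulk tissue dissected out of coronal slices. For comparison, 6 NAc libraries came from offspring of saline-treated dams, 3 stressed and 3 unstressed, and 6 libraries came from the dorsolateral striatum (DLS) of LPS offspring, again 3 stressed and 3 unstressed. The labels do not say which rats shared a litter or whether an NAc and a DLS library came from the same rat. The p-values treat the libraries as independent, and set each difference against the spread within all the groups fitted.

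LPS, found in the outer wall of Gram-negative bacteria, is sensed by Toll-like receptor 4, and giving it to a pregnant rat is a common model of maternal immune activation. The nucleus accumbens serves reward and motivation. Most of its neurons are GABAergic medium spiny projection neurons, of which one class carries the dopamine D1 receptor (the direct pathway) and another the dopamine D2 receptor (the indirect pathway). Stress hormones act there through glucocorticoid receptors on neurons and glia.

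The deposited values are the digits of FPKM values (fragments scaled to transcript length and to library size) whose decimal point is lost. Only ratios between libraries within a gene can be read, and levels of different genes cannot be compared. A gene was tested if its values were above 1 in all 12 NAc libraries and lay within a 3.16-fold range. This left 10616 genes of 12496, and 1880 genes fell outside the range. Levels are given below relative to the geometric mean of the 3 unstressed LPS libraries, which is set to 1, and differences are log2, stressed minus unstressed, ± the standard error (SE) from limma with n = 3 in each group. Sequencing depth is unknown. The number of genes listed as 1, for which no digits are usable, was 3838 to 3974 in the 6 LPS libraries. Every marker of striatal projection neurons found in the table was above 1 in all 6, namely 8 of the direct pathway, 6 of the indirect pathway and 19 of both. The same held for 12678 of all 17303 genes, and for 15 of 17 markers of choroid plexus and ependymal cells. Since the digits give no level, this does not show how much of any cell type a sample held. The 11 markers of cortical and other glutamatergic neurons were also above 1 in all 6 libraries, but 0 of them stayed within the range over the 12 NAc libraries and only 2 over the 6 LPS libraries, so their levels differed widely between dissected samples. Their part in the results was not tested.

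Among the genes tested, stress in LPS offspring went with small differences in NAc gene expression, and no gene passed the test. At an adjusted p under 0.05 (limma, Benjamini-Hochberg over 10616 genes) the count was 0. The smallest adjusted p was 1.00, so every gene given below with a difference had an adjusted p of 1.00 in that fit. Before adjustment, 133 genes had a p under 0.05, which is 1.25% of those tested, of which 68 were higher (0.641%) and 65 lower (0.612%) in stressed rats. The 3 stressed libraries lay wholly above or wholly below the 3 unstressed ones in 954 genes (8.99%), with 397 higher (3.74%) and 557 lower (5.25%). The median size of a difference was 0.07, a 1.05-fold change. It was 0.22 (1.17-fold) at the 90th percentile and 0.52 (1.43-fold) at the 99th, and the largest was 1.00 (2.00-fold), in Wdr93. The range that a gene had to keep to be tested limits these sizes, and the 1880 genes outside it are not among them.

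**Figure D1:**
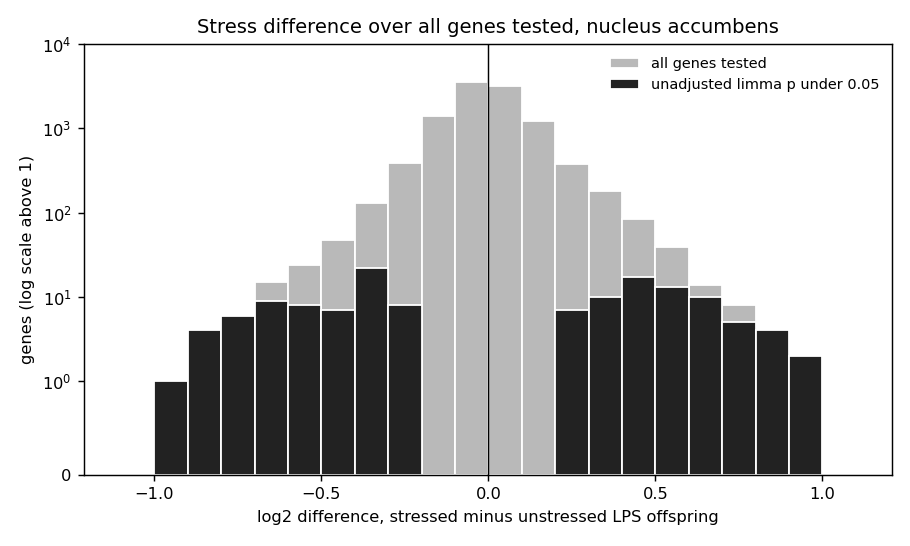
Histogram of the log2 difference between stressed and unstressed LPS offspring in the NAc over 10616 genes (grey bars; bins of 0.1; vertical axis logarithmic above 1), with the 133 genes at an unadjusted limma p under 0.05 in black. The distribution is centred near 0, and no gene tested differs by more than 1.00. Genes outside the 3.16-fold range are not included.

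For the genes tested, which all lay within the readable range, the intervals give the sizes of change that these libraries could have missed. The 95% interval excluded a 2-fold change in either direction for 10268 genes (96.7%) and a 1.5-fold change for 7613 (71.7%), with a median half-width of 0.36. With the 6 LPS libraries fitted alone and a narrower range, 405 of 10732 genes had an unadjusted p under 0.05 (3.77%), and none passed the adjusted test (smallest adjusted p 0.98). The median half-width was then 0.22. Of the 81 genes named by the first fit's unadjusted threshold that could be tested in the second, 75 were also under it there. Both fits use the same LPS values, so a gene's difference is the same in each, and this overlap is not independent support. The median SD over replicates was 0.11 in stressed and 0.11 in unstressed LPS offspring. It was 0.25 in stressed and 0.20 in unstressed saline offspring, and their spread enters the fit of all 12 libraries. Among the 8844 genes whose 3 libraries stayed within a 1.41-fold range in each LPS group, a span chosen after the values were seen, only 5 had a total range above 2.00-fold and 0 above 2.51-fold. These were Abhd14a, Adamts14 and Myh3, which were higher in stressed rats, and Gpr160 and LOC498675, which were lower. Adamts14, a procollagen-processing protease, had relative levels of 1.78, 1.73 and 1.90 in stressed rats, against 1.06, 1.01 and 0.928 in unstressed rats. Myh3, the embryonic skeletal muscle myosin heavy chain, had 1.60, 1.82 and 1.63 in stressed rats, against 0.913, 1.24 and 0.887 in unstressed rats. Genes chosen by these spans cannot have groups that overlap. Both genes were left out of the fit of 12 libraries because the saline libraries took them outside the range.

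The 12 genes with the smallest p among those higher in stressed rats included enzymes, secreted factors and a transcription factor. None passed the adjusted test, and they are described because of their rank. Ankrd39, which encodes a protein with ankyrin repeats and is listed on chromosome 9 from 42773441 to 42781822, ranked first. Its relative level was 2.04, 1.62 and 2.07 in stressed rats, against 0.905, 1.27 and 0.869 in unstressed rats. The lowest stressed library lay above the highest unstressed one, and the difference was 0.93 ± 0.17 (limma, adjusted p = 1.00). Sult2b1, a sulfotransferase that acts on cholesterol and other steroids, had 1.55, 1.86 and 1.68 in stressed rats, against 1.27, 0.888 and 0.884 in unstressed rats (0.76 ± 0.20). Il15, a cytokine that maintains natural killer cells and memory T cells, had 1.51, 2.09 and 1.97 in stressed rats, against 1.22, 1.00 and 0.815 in unstressed rats (0.88 ± 0.29). The groups were apart in each of these genes.

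Zfp639, a zinc finger protein, had 1.23, 1.23 and 1.22 in stressed rats, against 1.06, 0.966 and 0.974 in unstressed rats (0.30 ± 0.08), a small difference beside a narrow spread. Ltbp4, which tethers latent TGF-beta to the extracellular matrix, had 1.18, 1.27 and 1.36 in stressed rats, against 0.907, 1.01 and 1.10 in unstressed rats (0.34 ± 0.11). Nfe2l3, a transcription factor of the cap'n'collar family, had 1.54, 1.66 and 1.73 in stressed rats, against 0.930, 1.21 and 0.887 in unstressed rats (0.71 ± 0.22). Wdr93, a protein with WD repeats, had 2.16, 2.09 and 1.77 in stressed rats, against 1.15, 0.778 and 1.12 in unstressed rats (1.00 ± 0.29). The others were Abhd14a (0.61), Tm4sf19 (0.81), Zdhhc22, a member of the palmitoyltransferase family (0.59), Hpdl (0.49) and Notch4 (0.41). Hpdl was the only member of the 12 whose groups overlapped. Notch4, a receptor of the Notch family found in endothelium, is uncertain, because the deposited table gives it a locus on chromosome 20, from 6381700 to 6596927, that it shares with 15 other genes.

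The 12 genes with the smallest p among those lower in stressed rats began with Mylpf, the regulatory light chain of fast skeletal muscle myosin. Its relative level was 0.522, 0.395 and 0.743 in stressed rats, against 1.09, 0.867 and 1.06 in unstressed rats (−0.90 ± 0.23, limma, adjusted p = 1.00). Gpr160, a G protein-coupled receptor, had 0.667, 0.699 and 0.548 in stressed rats, against 1.02, 1.13 and 0.874 in unstressed rats (−0.66 ± 0.18). All stressed libraries lay below all unstressed ones in both genes. Tbp, the TATA-binding protein used by the nuclear RNA polymerases and often taken as a reference gene, had 0.814, 0.689 and 0.804 in stressed rats, against 1.03, 1.09 and 0.897 in unstressed rats (−0.38 ± 0.11). Skap2, an adaptor of Src family kinases, had 0.821, 0.825 and 0.693 in stressed rats, against 1.05, 0.957 and 0.996 in unstressed rats (−0.36 ± 0.10). The groups did not overlap in Tbp or in Skap2.

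Metabolic and vascular genes made up part of the remainder. Edn1, which encodes the vasoconstrictor endothelin-1, had 0.570, 0.547 and 0.812 in stressed rats, against 0.807, 1.09 and 1.14 in unstressed rats (−0.66 ± 0.20). The highest stressed library was just above the lowest unstressed one, so the groups overlapped. Agpat2, an acyltransferase of phospholipid and triglyceride synthesis, had 0.739, 0.630 and 0.395 in stressed rats, against 0.965, 0.922 and 1.12 in unstressed rats (−0.81 ± 0.28). Dctd, a deaminase of deoxycytidylate, had 0.721, 0.590 and 0.683 in stressed rats, against 0.922, 1.03 and 1.06 in unstressed rats (−0.59 ± 0.18). Cldn19, a claudin of tight junctions, had 0.617, 0.642 and 0.659 in stressed rats, against 1.02, 0.871 and 1.13 in unstressed rats (−0.65 ± 0.22). The groups were apart in Agpat2, Dctd and Cldn19. Lmbr1l (−0.39), Spata22, a protein of meiotic recombination (−0.57), Cyb5r2, a cytochrome b5 reductase (−0.42), and Creg1 (−0.32) completed the 12. In each direction, 11 of the 12 genes had groups that did not overlap, which their selection by p favours.

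**Figure D2:**
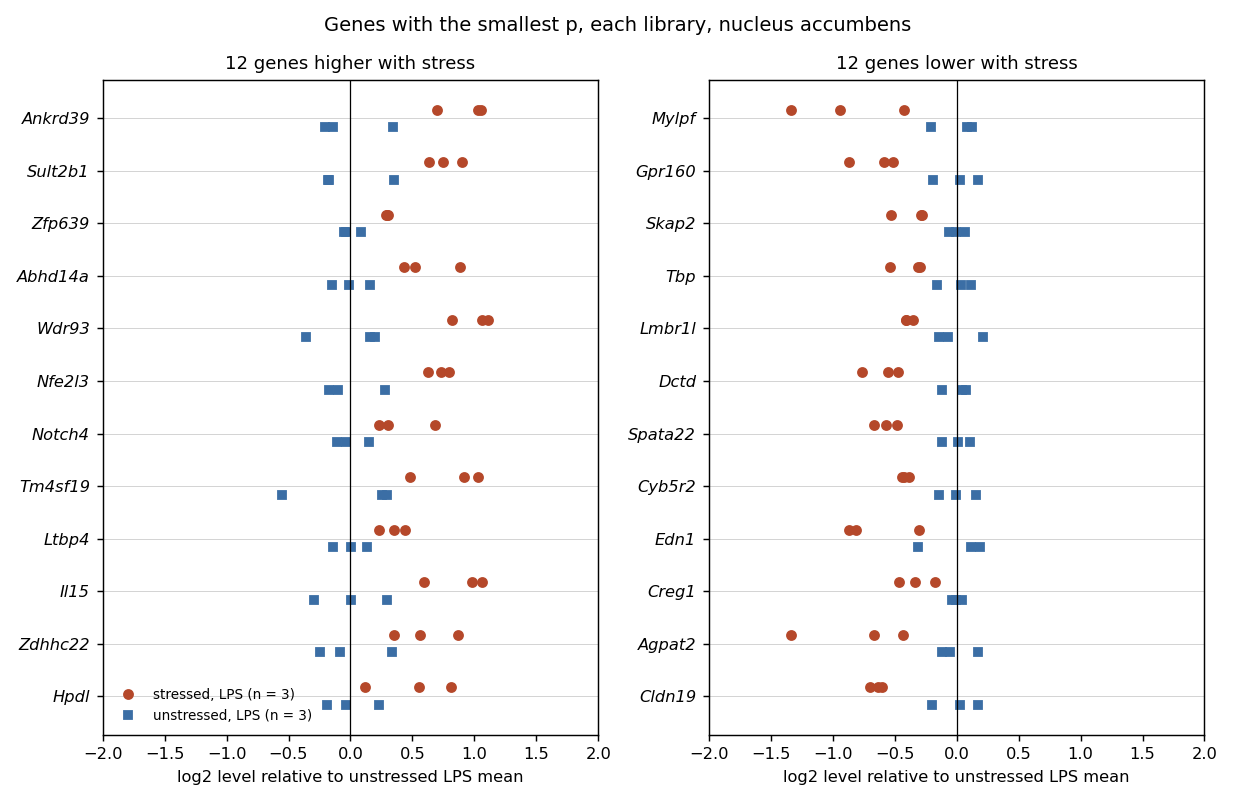
Log2 level of each of the 24 genes with the smallest p in the 3 stressed (circles) and 3 unstressed (squares) LPS libraries, relative to the mean of the unstressed libraries (0), with the 12 higher genes on the left and the 12 lower on the right. Groups overlap only in Hpdl and Edn1.

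Markers of the projection neurons were mostly below 1 in stressed rats, by amounts within their error. Of 18 tested genes shared by both pathways, 18 had a difference below 0, with a median of −0.14 and a range of −0.33 to −0.02, against 52.2% of all genes tested. None had an unadjusted p under 0.05. All 8 direct-pathway genes (median −0.16) and 5 of 6 indirect-pathway genes (median −0.19) were on the same side. In bulk tissue, fewer cells of a type and less RNA per cell cannot be told apart. Drd1, the dopamine D1 receptor, had relative levels of 0.924, 0.723 and 0.957 in stressed rats, against 1.09, 0.962 and 0.955 in unstressed rats (−0.21 ± 0.13). Drd2, the dopamine D2 receptor, had 0.958, 0.822 and 0.879 in stressed rats, against 0.916, 1.15 and 0.945 in unstressed rats (−0.18 ± 0.17). The groups overlapped for both receptors, with replicate 2 the lowest of the stressed libraries in each.

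The neuropeptides followed the same library. Pdyn, which encodes prodynorphin, had 0.927, 0.689 and 1.08 in stressed rats, against 1.02, 1.05 and 0.933 in unstressed rats (−0.18 ± 0.18). Tac1, the substance P precursor, had 0.912, 0.614 and 1.02 in stressed rats, against 1.22, 0.971 and 0.843 in unstressed rats (−0.27 ± 0.31). Penk, the enkephalin precursor of the indirect pathway, differed by 0.00 ± 0.26, and Adora2a, an adenosine receptor of the same neurons, by −0.05 ± 0.14. Replicate 2 was the lowest stressed library in the average of all 3 projection neuron lists. Averaged over the direct-pathway genes, the relative log2 level was −0.03, −0.44 and 0.01 in stressed replicates 1, 2 and 3, against 0.10, −0.03 and −0.06 in the unstressed replicates. Over the 18 genes shared by both pathways it was −0.01, −0.27 and −0.14 in the stressed replicates, against 0.01, 0.09 and −0.10 in the unstressed ones, so stressed replicate 3 also lay below all unstressed libraries there. Without stressed replicate 2 the list medians were −0.02 for the direct pathway, with 4 of 8 genes below 0, −0.10 for the indirect pathway, and −0.06 for the genes shared by both, with 16 of 18 below 0. Rarb, a retinoic acid receptor of striatal neurons, had the smallest p of the shared genes. Its level was 0.991, 0.640 and 0.792 in stressed rats, against 1.09, 1.07 and 0.857 in unstressed rats (−0.33 ± 0.16). The interneuron list leaned on the same library: its median over 7 genes was −0.26, and −0.01 without stressed replicate 2. Pthlh, a parathyroid hormone-like peptide found in striatal interneurons, had 0.934, 0.701 and 0.627 in stressed rats, against 1.24, 0.916 and 0.879 in unstressed rats (−0.43 ± 0.20).

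Of the cell-type lists, the astrocyte genes were the one whose average separated the 6 libraries by group, which the averages of 3 of all 37 lists did. Of 20 listed genes, 17 were tested, and 17 of these had a difference below 0 in stressed rats, with a median of −0.12 and a range of −0.24 to −0.03. None had an unadjusted p under 0.05. In 7 of the 17 (41.2%) the stressed libraries lay below all unstressed ones, against 5.25% of all genes tested. Averaged over the 17 genes, the relative log2 level was −0.10, −0.13 and −0.17 in stressed replicates 1, 2 and 3, against −0.07, 0.09 and −0.02 in the unstressed replicates. The gap between the nearest libraries of the 2 groups was thus small beside the range of the unstressed group. The 7 genes were Gfap, Aqp4, Gjb6, S100b, Glul, Apoe and Clu. Gfap, the intermediate filament of astrocytes, had relative levels of 0.916, 0.940 and 0.902 in stressed rats, against 1.02, 1.01 and 0.968 in unstressed rats (−0.12 ± 0.11). Aqp4, the water channel of astrocyte endfeet, had 0.833, 0.833 and 0.885 in stressed rats, against 0.957, 1.12 and 0.938 in unstressed rats (−0.23 ± 0.25). Glul, the glutamine synthetase that clears synaptic glutamate, had 0.890, 0.906 and 0.910 in stressed rats, against 0.945, 1.07 and 0.991 in unstressed rats (−0.15 ± 0.13). In each of these genes the stressed libraries were closer to each other than the unstressed ones. Clu, the secreted chaperone clusterin, had the smallest p of the list, with 0.891, 0.912 and 0.749 in stressed rats, against 0.931, 1.08 and 0.993 in unstressed rats (−0.24 ± 0.13). Its locus in the deposited table is shared with Scara3.

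**Figure D3:**
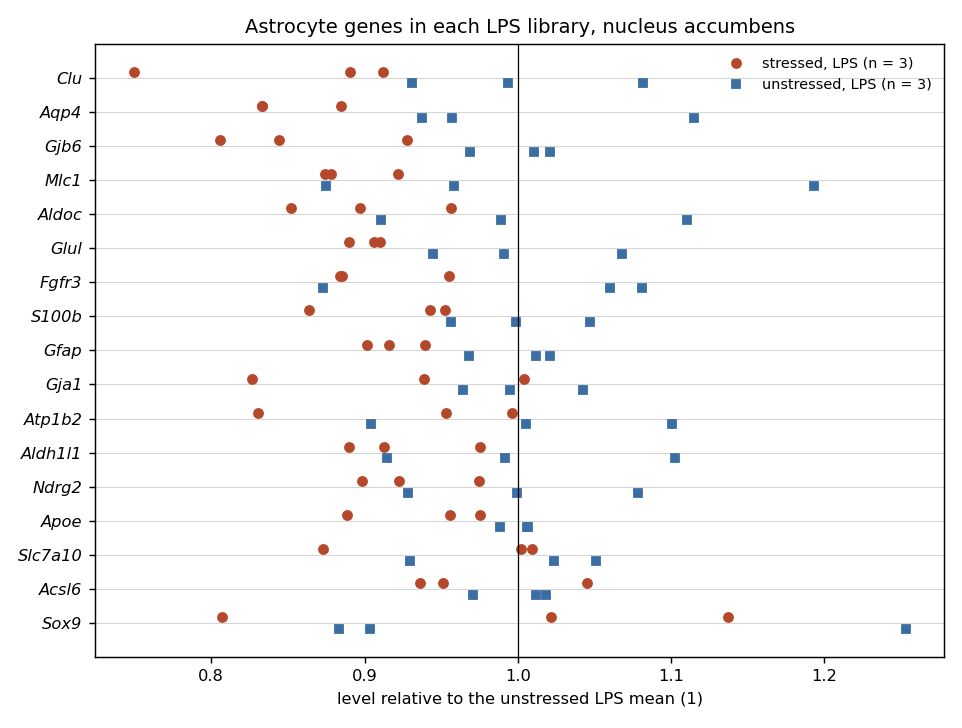
Level of the 17 tested astrocyte genes in the 3 stressed (circles) and 3 unstressed (squares) LPS libraries, relative to the unstressed mean (1), ordered by difference. Differences run from −0.24 (Clu) to −0.03 (Sox9) on the log2 scale, and the groups do not overlap in 7 genes.

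The astrocyte result was about as large without any single LPS library, with list medians from −0.18 to −0.09. Without stressed replicate 2 it was −0.14, with 17 of 18 tested genes below 0. In the fit of the 6 LPS libraries, 19 of 19 genes were below 0, with a median of −0.12, and 3 were lower at an unadjusted p under 0.05, against 2.11% of all genes in that fit. That fit reuses the same LPS values, so genes tested in both fits have the same difference in each. Among glial lists, the microglial genes had a median of −0.11, with 14 of 19 below 0, but their average was −0.24, 0.05 and −0.06 in the stressed replicates, against −0.09, 0.09 and −0.01 in the unstressed ones, so those groups overlapped. C1qb, a chain of complement C1q, was apart, with 0.855, 0.907 and 0.872 in stressed rats, against 1.00, 0.959 and 1.04 in unstressed rats (−0.19 ± 0.16). Aif1, the microglial protein IBA1, differed by 0.03 ± 0.27. Oligodendrocyte and myelin genes had a median of −0.02, with 16 of 25 below 0. Their average was −0.25, 0.23 and −0.02 in the stressed replicates, against −0.24, 0.20 and 0.04 in the unstressed ones, a spread within each group far wider than the difference between the groups. Mbp, the myelin basic protein, differed by −0.14 ± 0.21.

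Promoters of the astrocyte genes that were apart are shown because their differences lay on the same side, and because nuclear factor I is a transcription factor family known to act on astrocyte genes. RefSeq windows of 250 bases before the start on build GRCr8 were taken where a gene has a single listed start, which held for Gfap (chr10:88361662-88361911, minus strand) and S100b (chr20:12381082-12381331, minus strand). Capitals mark the nuclear factor I half-site, TTGGC or its reverse complement GCCAA, searched on both strands.
Gfap: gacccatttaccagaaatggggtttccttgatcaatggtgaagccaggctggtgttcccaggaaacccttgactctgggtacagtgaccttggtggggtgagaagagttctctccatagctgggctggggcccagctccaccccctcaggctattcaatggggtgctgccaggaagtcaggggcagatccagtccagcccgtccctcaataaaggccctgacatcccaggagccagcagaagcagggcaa
S100b: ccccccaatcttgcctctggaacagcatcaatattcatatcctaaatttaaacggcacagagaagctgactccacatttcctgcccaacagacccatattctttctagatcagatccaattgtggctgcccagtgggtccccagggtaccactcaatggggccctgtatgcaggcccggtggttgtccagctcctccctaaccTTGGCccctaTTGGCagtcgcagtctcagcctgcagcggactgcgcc
The S100b window holds 2 half-sites, which begin 47 and 37 bases before the start, and these letters are not in the Gfap window. Of all 33469 promoter windows of this length, 40.3% hold the half-site. S100b, a calcium-binding protein of astrocytes, had relative levels of 0.952, 0.943 and 0.864 in stressed rats, against 1.05, 0.999 and 0.956 in unstressed rats (−0.12 ± 0.14).

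Endothelial and mural cell genes and presynaptic genes were on the other side. In the vascular list 18 of 20 genes had a difference above 0, against 47.8% of all genes tested, with a median of 0.13. None had an unadjusted p under 0.05, and 0 were apart between the groups. Averaged over the list, the relative log2 level was −0.04, 0.17 and 0.26 in the stressed replicates, against −0.47, 0.34 and 0.13 in the unstressed ones. Unstressed replicate 1 was the lowest of the 6 libraries and unstressed replicate 2 the highest. Without unstressed replicate 1 the median turned to −0.11, and without unstressed replicate 2 it was 0.30. Tie1, an endothelial receptor kinase with the smallest p of the list, had 1.00, 1.67 and 1.34 in stressed rats, against 0.726, 1.38 and 1.00 in unstressed rats (0.39 ± 0.22).

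In the list of presynaptic release, 19 of 23 genes had a difference above 0, with a median of 0.10. Without any single LPS library this median was between 0.06 and 0.18. In 3 of the 23 (13.0%) the groups were apart, against 3.74% of all genes. Nrxn2, an adhesion molecule of the presynaptic membrane, had 1.05, 1.13 and 1.19 in stressed rats, against 0.990, 0.976 and 1.03 in unstressed rats (0.17 ± 0.12). Stx1a, the syntaxin of the vesicle fusion machinery, had 1.08, 1.66 and 1.13 in stressed rats, against 1.03, 0.980 and 0.990 in unstressed rats (0.34 ± 0.26). The groups were apart in both genes, and stressed replicate 2 carried most of the difference in Stx1a. The third was Syn2, a synapsin, at 0.07 ± 0.28, whose locus in the table is shared with 5 other genes. Voltage-gated channels had 14 of 19 genes above 0 (median 0.10) and postsynaptic scaffold genes 13 of 17 (median 0.06). Without any single LPS library these medians were between 0.04 and 0.15 for the channels and between 0.02 and 0.12 for the scaffold genes. Cacna1g, the T-type calcium channel Cav3.1, had 1.28, 1.56 and 1.30 in stressed rats, against 1.16, 0.707 and 1.22 in unstressed rats (0.46 ± 0.35).

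Genes of protein synthesis and folding leaned lower. Of 70 tested cytosolic ribosomal protein genes, 64 had a difference below 0, against 52.2% of all genes tested, with a median of −0.09. In 21 of the 70 (30.0%) the stressed libraries lay below all unstressed ones, against 5.25% of all genes. Their average relative log2 level was −0.02, −0.12 and −0.21 in the stressed replicates, against 0.04, 0.02 and −0.06 in the unstressed ones, so that stressed replicate 1 lay inside the unstressed range. Without stressed replicate 3 the median was −0.04. Rpl27a, a protein of the large subunit, had relative levels of 0.864, 0.767 and 0.852 in stressed rats, against 1.03, 1.05 and 0.927 in unstressed rats (−0.28 ± 0.17). Rpl17 had the smallest p of the list and was the 1 gene of the 70 with an unadjusted p under 0.05, against 1.25% of all genes. It differed by −0.79 ± 0.28, with levels of 0.616, 0.554 and 0.570 in stressed rats, against 1.11, 1.49 and 0.606 in unstressed rats. The groups overlapped, and reads of ribosomal protein genes can be split with near-identical pseudogenes. In the list of heat shock and chaperone genes, 28 of 33 were below 0 (median −0.11), against 52.2% of all genes. In 4 (12.1%) the stressed libraries lay below all unstressed ones, against 5.25% of all genes, namely Hsp90aa1, Hsp90ab1, Hsf1 and Chordc1. Hsp90aa1, the inducible cytosolic HSP90, had 0.934, 0.834 and 0.914 in stressed rats, against 1.14, 0.939 and 0.938 in unstressed rats (−0.16 ± 0.18). Hspa5, the endoplasmic reticulum chaperone BiP, had 0.961, 0.631 and 1.02 in stressed rats, against 1.02, 1.01 and 0.968 in unstressed rats (−0.23 ± 0.19). The list's average relative log2 level was −0.10, −0.24 and 0.04 in the stressed replicates, against −0.01, −0.02 and 0.02 in the unstressed ones. As for Hspa5, stressed replicate 2 was the lowest library, while stressed replicate 3 was the highest, so the groups overlapped. Without stressed replicate 2 the list median was −0.04.

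**Figure D4:**
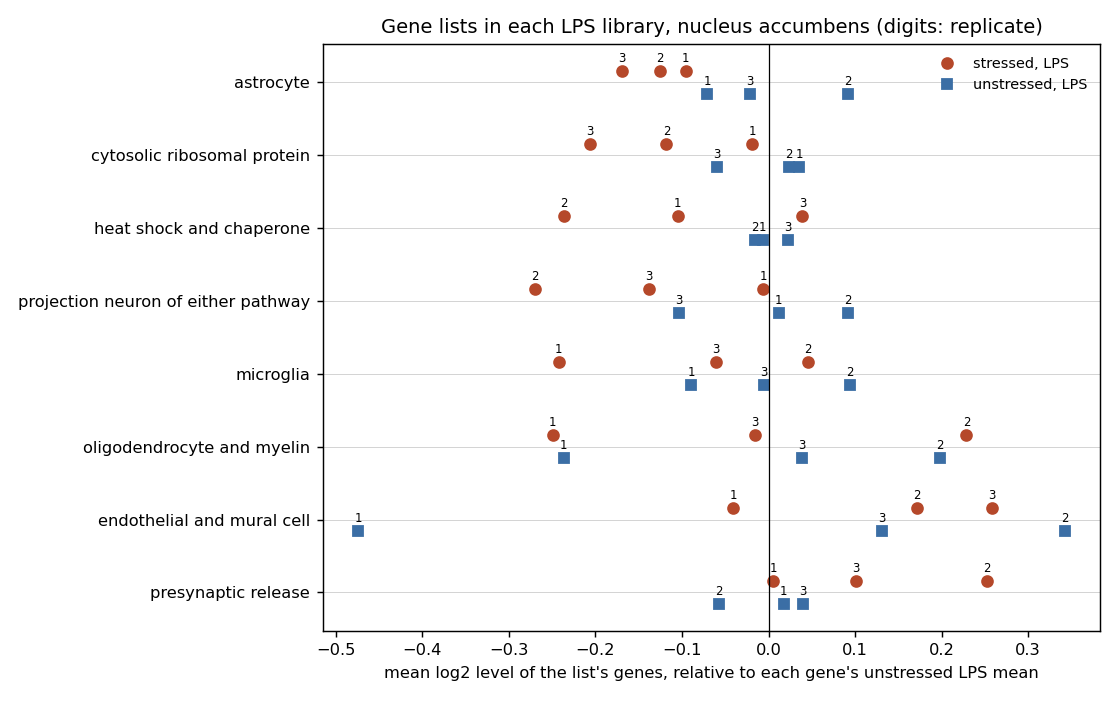
Mean log2 level of 8 gene lists in each stressed (circles) and unstressed (squares) LPS library of the NAc, relative to the unstressed mean (0), with replicate numbers beside the points. Astrocyte genes are the list shown whose groups do not overlap (−0.17 to −0.10 in stressed, −0.07 to 0.09 in unstressed libraries), while myelin and vascular genes spread over each group.

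Lists of the response to corticosteroids and of immunity were mostly below 0 in stressed rats, with no gene past the adjusted test. Among 21 tested corticosteroid receptor and responsive genes, 15 had a difference below 0 and 6 above (median −0.04), and with a single LPS library left out the median lay between −0.07 and 0.05. Nr3c1, the glucocorticoid receptor, had relative levels of 0.895, 0.872 and 0.978 in stressed rats, against 0.915, 1.08 and 1.01 in unstressed rats (−0.13 ± 0.17), at a locus shared with 4 other genes. Its target Fkbp5, a co-chaperone of the receptor, had 1.00, 1.01 and 1.13 in stressed rats, against 1.09, 0.951 and 0.964 in unstressed rats (0.07 ± 0.11). Sgk1, a kinase induced by corticosteroids, differed by −0.03 ± 0.23 and Per1, a clock gene with the same property, by 0.00 ± 0.25. Groups overlapped in all of these. Of the 21, 1 had an unadjusted p under 0.05, against 1.25% of all genes tested. It was Mt1a, a metallothionein that binds zinc and is induced by glucocorticoids. Its level was 1.44, 1.44 and 1.25 in stressed rats, against 0.997, 0.849 and 1.18 in unstressed rats (0.46 ± 0.19). Hsd11b1, the enzyme that regenerates active corticosterone, had 0.838, 0.866 and 0.882 in stressed rats, against 1.06, 0.944 and 0.997 in unstressed rats (−0.21 ± 0.13). The groups were apart in both. Crhr1, the receptor of corticotropin-releasing factor, differed by −0.12 ± 0.15.

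Of 17 tested genes of Toll-like receptors and NF-kB, 13 were below 0 (median −0.09) and none had an unadjusted p under 0.05. Their average was −0.20, −0.13 and −0.06 in the stressed replicates, against −0.01, 0.04 and −0.03 in the unstressed ones, so the groups were apart by a small gap. Without any single LPS library the list median was between −0.13 and −0.07. Tlr3, which senses double-stranded RNA, had 0.619, 0.841 and 0.726 in stressed rats, against 1.06, 1.26 and 0.753 in unstressed rats (−0.47 ± 0.26). Tlr4, the receptor of LPS itself, differed by −0.09 ± 0.30, and Myd88, the adaptor of most Toll-like receptors, by −0.04 ± 0.10. Cytokine and receptor genes had 11 of 18 below 0 (median −0.06) and interferon response genes 7 of 12 (median −0.05), and both medians changed sign when certain single LPS libraries were left out. Immediate early genes, which mark recent neuronal activity, were divided, with 11 of 24 above 0 and 13 below (median −0.02). Fos, Bdnf and Oprk1 were outside the range that could be read, and Ttr was listed as 1 in some NAc libraries, so none of these has a value here.

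A few genes could be read in 1 group only. Among all 17303 genes, 16 (0.0925%) were above 1 in the 3 stressed libraries and listed as 1 in the 3 unstressed ones, including Abcg8, Abra, Aox2, Cebpe, Cpa6 and Dnase2b. The reverse held for 6 (0.0347%), namely Fam3b, Myl6b, Ndufa10l1, Ppp1r3a, Spata4 and Tas1r3. No fold can be given for them, since the value behind a listed 1 is not known.

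Whether stress acted differently in LPS offspring than in saline offspring was tested as a difference of differences in the fit of the 12 NAc libraries. After adjustment 0 of 10616 genes passed (limma, smallest adjusted p 1.00). Before adjustment, 189 genes were under 0.05 (1.78%). Slc39a11, which encodes the zinc transporter ZIP11, had the smallest p. Among LPS offspring its level was 1.22, 1.20 and 1.11 in stressed rats, against 1.06, 0.989 and 0.955 in unstressed rats. Among saline offspring it was 0.648, 0.727 and 0.697 in stressed rats, against 0.955, 1.02 and 1.02 in unstressed rats, relative to the mean of the 3 unstressed saline libraries. The stress difference was thus 0.23 ± 0.09 in LPS offspring and −0.54 ± 0.09 in saline offspring, with a difference of 0.77 ± 0.13 between them. Tinagl1, a secreted basement membrane protein, had a stress difference of 0.53 ± 0.19 in LPS offspring and −0.56 ± 0.19 in saline offspring (1.09 ± 0.26). Emx2, a homeobox transcription factor, had −0.28 ± 0.12 in LPS offspring and 0.39 ± 0.12 in saline offspring (−0.66 ± 0.17). Ankrd39 had 0.93 ± 0.17 in LPS offspring and −0.08 ± 0.17 in saline offspring (1.00 ± 0.24). In Slc39a11, Tinagl1 and Emx2 the stressed libraries were on one side of the unstressed ones in LPS offspring and on the other side in saline offspring. Of the 24 genes with the smallest p in LPS offspring, 5 of the 12 higher and 10 of the 12 lower ones also had an unadjusted p under 0.05 for this difference, which their selection favours. The sign in saline offspring was opposite in 5 of the 12 higher and 8 of the 12 lower genes, and the same in the others. Some differed alike in LPS and saline offspring, namely Cldn19 (−0.65 and −0.67), Spata22 (−0.57 and −0.50) and Hpdl (0.49 and 0.45).

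In saline offspring most lists had a median stress difference above 0, whatever their sign in LPS offspring: 18 of the 22 lists with a median below 0 in LPS offspring, and 10 of the 15 with a median above 0. The astrocyte genes had a median stress difference of −0.12 in LPS offspring and 0.12 in saline offspring, where 15 of 17 were above 0, against 52.5% of all genes. Their average was 0.27, 0.14 and 0.09 in stressed saline libraries, against 0.05, −0.06 and 0.01 in unstressed ones, so both pairs of groups were apart, in opposite directions. Gene by gene, the saline groups were apart, with stressed above unstressed, in 3 of the 17, against 2.11% of all genes. The difference of differences had a median of −0.26 over the list, and 5 of the 17 had an unadjusted p under 0.05, against 1.78% of all genes, led by Aldh1l1 (−0.38 ± 0.14), an enzyme of folate metabolism specific to astrocytes, and Gjb6, the gap junction protein connexin 30 (−0.68 ± 0.25). Projection neuron genes of both pathways had medians of −0.14 in LPS offspring and 0.07 in saline offspring, chaperones −0.11 and 0.06, and microglial genes −0.11 and 0.09. Ribosomal protein genes were at −0.09 in LPS offspring and −0.02 in saline offspring. Presynaptic genes were at 0.10 in LPS offspring and −0.02 in saline offspring. The saline libraries were less alike than the LPS libraries, and stressed saline replicate 3 stood apart, with a median distance of 0.26 from its group's mean, against 0.06 to 0.09 in the 6 LPS libraries.

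**Figure D5:**
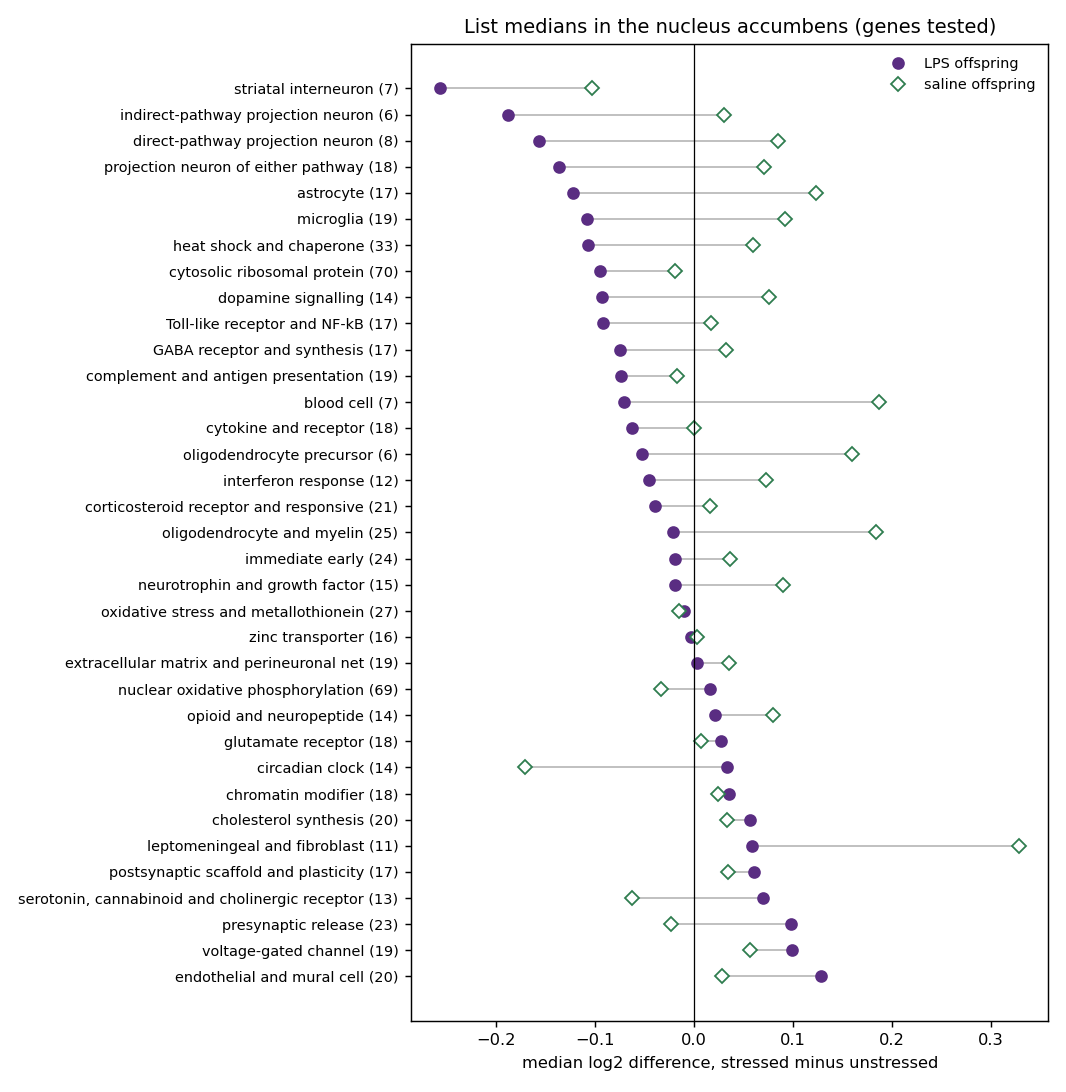
Median log2 difference between stressed and unstressed rats over the tested genes of 35 lists in the NAc, in LPS offspring (filled circles) and saline offspring (open diamonds), with the number of genes in brackets. The astrocyte median is −0.12 in LPS offspring and 0.12 in saline offspring, and the vascular median is 0.13 in LPS offspring and 0.03 in saline offspring.

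Stress among LPS offspring was also set against the same comparison in the DLS, in a fit of all 24 libraries. Of 7667 genes that could be read in both regions, 0 passed the adjusted test of the difference between regions. Its smallest adjusted p was 1.00 (limma), and 97 genes were under 0.05 before adjustment (1.27%), which include the 4 named here. Med8, a subunit of the Mediator complex, had a stress difference of −0.16 in the NAc and 0.51 in the DLS (−0.68 ± 0.19). Gpr160 had −0.66 in the NAc and 0.44 in the DLS (−1.10 ± 0.33). Zbtb22, a zinc finger protein, had 0.23 in the NAc and −0.29 in the DLS (0.52 ± 0.16), and Afmid, an enzyme of tryptophan breakdown, had −0.15 in the NAc and 0.39 in the DLS (−0.53 ± 0.16). The astrocyte genes read in both regions had medians of −0.12 in the NAc, with 15 of 15 below 0, and 0.01 in the DLS, with 7 of 15 below 0 against 55.3% of all genes there, and none of the 15 had an unadjusted p under 0.05 for the difference. Only 18 of the 70 ribosomal protein genes could be read in both regions. Their medians were −0.10 in the NAc, with 17 below 0, and 0.06 in the DLS, with 1 below 0. The 11 projection neuron genes of both pathways were at −0.16 in the NAc, with 11 below 0, and −0.15 in the DLS, with 7 below 0. In both lists, 0 genes had an unadjusted limma p under 0.05 for the difference between regions.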

How the data were processed

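RNA-seq libraries from 12 NAc samples and, for the comparison of regions, 12 DLS samples were used. Per the labels' protocols, poly(A) RNA was made into directional libraries. STAR and Cuffdiff 2.2.1 were run, per the submitters' processing notes. Genome build, annotation and the part each tool played: not given in the sources used here. The authors deposited 1 table of 17303 genes with columns headed FPKM, but its values are digit strings without a decimal point, so the deposited values were treated as a score known up to a power of 10, and depth is unknown. All columns were matched to a sample by title.

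On a circle of 1 decade, each gene's values were placed by their log10 digits and read as relative log2 values if its libraries lay within 0.5 decades (3.16-fold) and none was listed as 1 or blank. About 0.586% of genes with random digits would pass. A gene whose groups differ more widely is left out, or, near a factor of 10, can be misread. This reading, in place of one on FPKM values, was chosen because of that lost point.

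Tests used limma 3.58.1 (R 4.3.3), by lmFit, contrasts.fit and eBayes without trend, with 4 group means, 8 residual degrees of freedom, two-sided tests and Benjamini-Hochberg adjustment over all genes tested, at a threshold of 0.05. The comparison of regions used 24 libraries and 8 group means. The procedure was tested on simulated digits. The 38 gene lists were counted and not tested; a list's average is the mean relative log2 value of its tested genes in a library. Named genes are the 12 higher and 12 lower with a symbol and the smallest p, 19 fixed genes, the 2 members of each list with the smallest p, the 4 genes with the smallest p in each comparison of differences, and up to 6 genes listed as 1 in 1 group. Others named from the lists, such as members whose groups were apart or that carry a textbook role, were chosen after their values were seen. The libraries, lists and rules were chosen with earlier results of these data known. Alternatives were arcs of 0.3 and 0.7 decades, median centring, array weights, robust eBayes, the 6 LPS libraries alone with an arc of 0.3 decades, all 24 libraries, and leaving out each library. List counts without stressed replicate 2 and in the fit of 6 libraries were added after the values were seen.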

Additional observations from a re-analysis of the deposited data

Results flagged for a closer look

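Astrocyte genes had a mean log2 stress difference of −0.13 in LPS offspring and 0.17 in saline offspring, and in each case all stressed libraries lay on one side of all unstressed ones, in opposite directions. The difference for the list was not tested. The values of Gjb6, a member of that list, also lay on opposite sides: its level was 0.927, 0.805 and 0.844 in stressed LPS offspring, against 1.01, 1.02 and 0.969 in unstressed LPS offspring, and 1.36, 1.31 and 1.45 in stressed saline offspring, against 1.23, 1.15 and 0.706 in unstressed saline offspring. The stress difference in LPS offspring minus that in saline offspring was −0.68 (limma, adjusted p = 1.00).

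The same opposite arrangement of all libraries was seen in 5 other named genes, each with an adjusted limma p of 1.00 for the difference between LPS and saline offspring. That difference was −0.47 for Skap2, 0.77 for Slc39a11, 1.09 for Tinagl1, −0.66 for Emx2 and −0.54 for Hsd11b1. No count of the opposite arrangement over all genes tested is given here. Taken singly, the groups were apart in 8.99% of all genes in LPS offspring. In saline offspring the stressed libraries were wholly higher in 2.11% and wholly lower in 1.38%. Tinagl1 had relative levels of 1.50, 1.54 and 1.30 in stressed LPS offspring, against 0.789, 1.10 and 1.15 in unstressed LPS offspring, and 0.690, 0.547 and 0.826 in stressed saline offspring, against 0.996, 1.16 and 0.863 in unstressed saline offspring. Emx2 had 0.819, 0.867 and 0.793 in stressed LPS offspring, against 0.993, 1.08 and 0.929 in unstressed LPS offspring, and 1.45, 1.33 and 1.16 in stressed saline offspring, against 0.978, 0.908 and 1.13 in unstressed saline offspring. In Skap2 the saline groups were apart by a very small gap, with 1.05, 1.06 and 1.13 in stressed, against 1.04, 0.922 and 1.05 in unstressed saline offspring. The gap was also very small in Hsd11b1, with 1.307, 1.137 and 1.322 in stressed, against 1.134, 1.071 and 0.823 in unstressed saline offspring. Slc39a11, Tinagl1 and Emx2 were named because of the difference between LPS and saline offspring, so their arrangement is favoured by their selection. Skap2, Hsd11b1 and Gjb6 were named for a small p in LPS offspring, which favours the LPS part of their arrangement.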

How the results depend on the processing

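No gene passed the adjusted test of stress among LPS offspring, of its difference from saline offspring or of its difference from the DLS in any setting run. With array weights the smallest adjusted limma p was 0.085, 0.067 and 0.071 for these in turn. It was 0.091 for the difference from saline offspring without unstressed saline replicate 3. The count at an unadjusted p under 0.05 depended on the setting. For stress it was 133, and 88 with an arc of 0.3 decades, 697 with array weights, 405 with the 6 LPS libraries alone and an arc of 0.3 decades, 41 with all 24 libraries and 75 to 225 with a library left out (75 without stressed LPS replicate 2, 225 without stressed LPS replicate 1, 220 without stressed saline replicate 3). For the difference from saline offspring it was 189, and 327 with an arc of 0.7 decades, 2941 with array weights and 124 to 1109 with a library left out, the highest without stressed saline replicate 3. For the difference from the DLS it was 97, and 1029 with array weights and 52 to 463 with a library left out. Array weights, whose estimation did not fully converge, lean on the most alike libraries. The causes were not tested. All 414 alternative values of the 24 genes with the smallest p kept their sign, as did 668 of 688 over 39 named genes. Most settings (other arcs, robust eBayes, the 6 or 24 libraries, a saline library left out) reuse the same LPS values. A gene's difference cannot turn there, and selection by p also favours a kept sign in the 24. Of the list medians, 627 of 702 kept their sign, and 15 of 37 lists kept it in every setting. No paired analysis was possible because the labels give no replicate number shared between groups.

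Depth is unknown, the digits give no level, and differences beyond a 3.16-fold range cannot be read. With 3 libraries a group the median 95% half-width was 0.36. In a gene with an interval of that width, a smaller difference could not be told from 0.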

Other observations

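Other lists of striatal function held 1 or 2 genes each whose groups were apart, against 8.99% of all genes tested: 1 of 14 dopamine signalling genes, 1 of 14 opioid and neuropeptide genes, 2 of 13 serotonin, cannabinoid and cholinergic receptor genes, 1 of 17 GABA genes and 2 of 18 glutamate receptor genes. Dopamine signalling genes had 12 of 14 differences below 0 (median −0.09). Genes of GABA receptors and synthesis had 10 of 17 below 0 (median −0.07), with Gad1, the GABA-synthesizing enzyme, at −0.13 ± 0.12. The average of this list also separated the groups, by a very small gap. It was −0.052, −0.027 and −0.016 in the stressed replicates, against −0.008, 0.002 and 0.006 in the unstressed ones. Glutamate receptor genes had 9 below and 9 above 0 (median 0.03). Opioid and neuropeptide genes had 9 of 14 above 0 (median 0.02), and Ntsr2, a neurotensin receptor, had 0.909, 0.825 and 0.806 in stressed rats, against 1.01, 0.958 and 1.03 in unstressed rats (−0.24 ± 0.11). Serotonin, cannabinoid and cholinergic receptor genes had 8 of 13 above 0 (median 0.07). Cnr1, the CB1 cannabinoid receptor, had 1.05, 1.38 and 1.13 in stressed rats, against 1.03, 0.953 and 1.02 in unstressed rats (0.24 ± 0.22).

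Of all 37 lists, 16 had a median that kept its sign whichever single LPS library was left out. The opioid and glutamate receptor lists did not, nor did the lists that follow, except the choroid plexus list. Nuclear oxidative phosphorylation genes had 43 of 69 above 0 (median 0.02), cholesterol synthesis genes 13 of 20 (median 0.06, but −0.05 with 15 of 20 below 0 without stressed replicate 2), chromatin modifiers 10 of 18 (median 0.04) and extracellular matrix genes 10 of 19 (median 0.00). Circadian clock genes had 7 above and 7 below 0 (median 0.03), zinc transporters 8 above and 8 below (median 0.00), oxidative stress and metallothionein genes 12 of 27 above (median −0.01), and neurotrophin and growth factor genes 5 of 15 above (median −0.02). Complement and antigen presentation genes had 13 of 19 below 0 (median −0.07, but 0.01 without stressed replicate 2). Among other cell types, oligodendrocyte precursor genes had 5 of 6 below 0 (median −0.05), blood cell genes 4 of 7 (median −0.07), and leptomeningeal genes 7 of 11 above 0 (median 0.06). Of 17 choroid plexus and ependymal genes 3 could be tested, with 2 above 0 and 1 below (median 0.58). The groups were apart only in the 1 that was lower (−0.21). The list median turned to −0.21 with an arc of 0.3 decades. With the 6 LPS libraries alone, 1 gene was above 0 and 1 below (median 0.03). Foxj1, which drives the formation of motile cilia, had 1.85, 2.11 and 0.935 in stressed rats, against 0.789, 1.05 and 1.20 in unstressed rats (0.62 ± 0.33). CRF and stress peptide genes had 2 above and 2 below 0 (median 0.04). None of these lists had a member past the adjusted test.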
